A study of Crinum x powellii with 21 samples.

Results

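Light-grown callus of Crinum x powellii 'Album', cultured with 2 mg/L of the synthetic auxin 2,4-D, was compared with bulb, the organ that supplied its explants. The comparison used the 6 libraries that carry these labels, 3 of callus and 3 of bulb, out of 21 libraries of polyadenylated RNA in the series. Callus had grown from pairs of bulb scales on a medium that also held sucrose, yeast extract and 2 cytokinins, in a daily cycle of 14 h light and 10 h dark. Bulbs were bought commercially, stored cold and frozen without culture. The titles of the callus libraries carry the digit 3, whereas their treatment label gives 2 mg/L, and the label was followed. The remaining libraries, 8 of callus under other conditions and 7 of root, leaves and basal plate, serve here as levels against which the results are set. The labels name no donor bulb and do not say whether libraries of a group came from separate cultures or plants, so p-values measure the spread between these libraries, which may be technical. RNA came from a column kit for callus and from extraction in a CTAB buffer for bulb, so tissue and isolation method cannot be told apart in any difference between both groups. In bulk tissue, fewer cells of a type and less RNA per cell cannot be told apart either.

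A bulb is a storage organ of fleshy scales around a short stem, and in amaryllids it is known for starch, mannose-binding lectins and alkaloids. Callus is a mass of dividing, largely undifferentiated cells that auxin and cytokinin induce on a wounded explant. 2,4-D acts as an auxin that plant cells break down slowly, and it is a common agent for callus induction.

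Expression was given per feature of an assembled transcriptome, where a feature is the assembler's equivalent of a gene and may have several isoforms. The files pair no feature with a gene name, function or sequence, so the labelled tissues were not checked against marker genes and features are described by level, group and behaviour. The estimated counts of the callus libraries added up to 59071345, 26403881 and 58100495 for replicates A, B and C, against 39805361, 29530840 and 41784168 for bulb replicates 1, 2 and 3. Levels are in CPM, counts scaled to a common library total of 1e+06. A level of 0.1 CPM stood for 5.91, 2.64 and 5.81 counts in callus A, B and C and for 3.98, 2.95 and 4.18 counts in bulb 1, 2 and 3. The shallowest callus library thus limits what can be called absent. No pair of replicates agreed within sampling noise, with a chi-square of 11.5 to 17.3 per feature in callus and 9.94 to 10.5 in bulb.

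Callus libraries resembled one another more than they resembled bulb. Computed over the features of the assembly, which do not count as independent replicates, the Pearson correlation of log2(CPM + 1) between a callus and a bulb library lay between 0.911 and 0.930 over 9 pairs. It lay between 0.989 and 0.991 among the callus libraries and between 0.993 and 0.994 among the bulb libraries. These libraries share the assembly and differ in depth, so the values are descriptions.

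More features were detected in callus than in bulb. The number at 1 CPM or more was 36580, 37753 and 32713 in callus A, B and C, against 28777, 28676 and 30492 in bulb 1, 2 and 3. Every callus library lay above every bulb library. The means were 35682 ± 2637 in callus and 29315 ± 1021 in bulb (SD, n = 3 each; exact two-sided permutation test, p = 0.10, the smallest that 3 against 3 allows). Counts were about as concentrated in both tissues, with 11.3% ± 0.283 of the counts in the 100 most abundant features in callus and 12.1% ± 0.194 in bulb (SD, n = 3 each; exact two-sided permutation test, p = 0.10). The difference in this share was -0.825 points, and -0.195 points with salmon counts. Both lists of 100, however, shared only 28 features. The 100 most abundant bulb features took 5.81%, 6.12% and 5.89% of the counts in callus A, B and C, against 12.0%, 12.3% and 11.9% in bulb 1, 2 and 3.

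Most tested features changed between callus and bulb. A feature is termed called where the FDR (Benjamini-Hochberg) of edgeR's quasi-likelihood test was under 0.05. Of 66278 tested features 40291 were called, or 60.8%, of which 22948 (34.6% of those tested) were higher and 17343 (26.2%) lower in callus. At least 2-fold changes were found for 20226 features higher in callus and 11673 lower. The share of the calls that was higher in callus was 57% with TMM scaling and 68.8% with library totals alone. Over all 66278 features the log2 fold change had a median of 0.25 with TMM and 0.60 with library totals, so the direction of a small change depends on the scaling. Fold changes and calls are with TMM unless library totals are named.

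Bulb features were taken as those with at least 1 CPM in each of the 3 bulb libraries, 26704 in all. Most of them were still detected in callus. At least 1 CPM in each of the 3 callus libraries was reached by 23898 of them (89.5%), termed kept. Under 0.1 CPM in each of the 3 callus libraries were 219 (0.82%), termed lost. The remaining 2587 (9.69%) lay in between, with median levels of 0.705 CPM in callus and 2.10 CPM in bulb. Kept features took 90.2%, 90.4% and 92.2% of the counts in callus A, B and C, against 96.4%, 96.5% and 95.8% in bulb 1, 2 and 3. Lost features took 0.000468%, 0.000394% and 0.000428% of the counts in callus and 0.142%, 0.146% and 0.139% in bulb, small in RNA as in number.

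**Figure D1:**
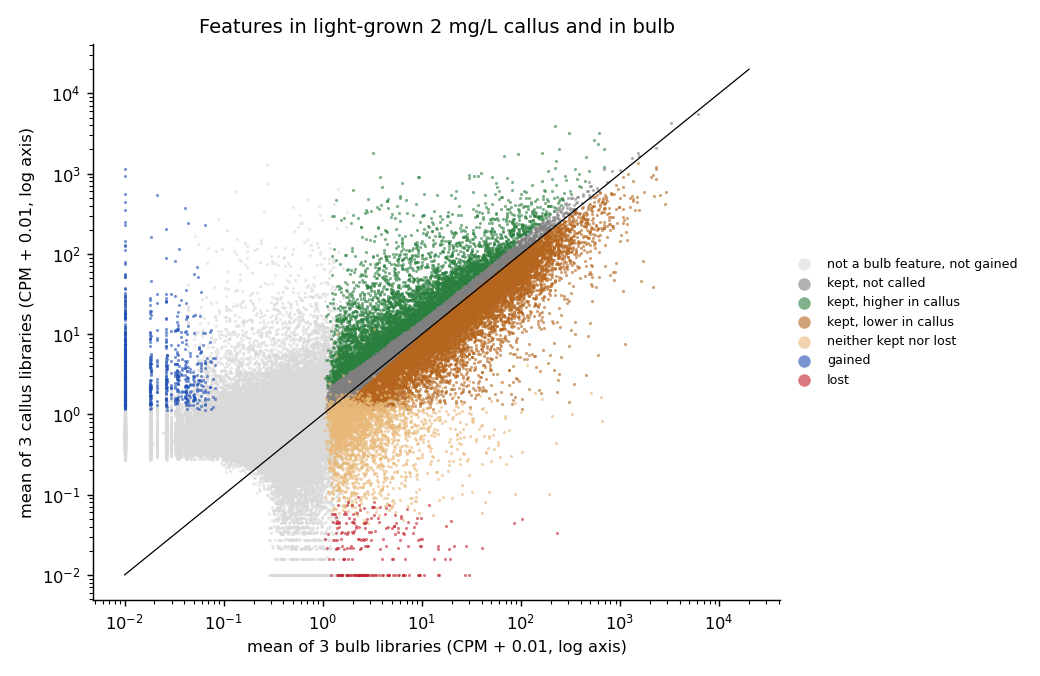
Mean level of each tested feature in light-grown 2 mg/L callus (vertical, 3 libraries) against bulb (horizontal, 3 libraries), both as CPM + 0.01 on log axes, coloured by class; the line marks equal levels. The 23898 kept features form the cloud around the line, the 219 lost features the band at the bottom right and the 789 gained features the band at the upper left.

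Being kept did not mean being kept at the same level. Among the 26704 bulb features, all of which passed the filter, 13592 (50.9%) were lower and 4894 (18.3%) higher in callus, beside 26.2% and 34.6% among all tested features. With library totals alone 10215 (38.3%) were lower and 7850 (29.4%) higher, beside 19.4% and 42.8%. Their median log2 fold change was -0.47 with TMM and -0.11 with library totals. Since bulb features were chosen for their level in bulb, some excess of lower calls follows from the choice itself. Among the 23898 kept features alone, 11024 were lower and 4893 higher with TMM, whereas the split was nearly even, at 7929 and 7850, with library totals. Strong falls were less frequent: 2921 bulb features (10.9%) fell at least 4-fold, beside 7.54% of all tested features, and 778 (2.91%) fell at least 16-fold, beside 2.26%. Rises of at least 4-fold and 16-fold were found for 907 and 143 bulb features, or 3.40% and 0.536%, beside 20.3% and 7.25% of all tested features. The tested features include those weak or absent in bulb, which the definition of a bulb feature leaves out. Part of this gap in strong rises thus follows from the definition.

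For a set of bulb features the change was bounded within 2-fold. For 10706 of the 26704 (40.1%) the 95% interval of the change lay inside 2-fold in either direction, and for 12209 (45.7%) with library totals. Over all tested features this share was 17.9%, and the many weak features among them have wide intervals. Only 8218 bulb features were not called, fewer than the 10706, so a part of the 10706 was called as changed, by less than 2-fold. A missed call by itself does not show an equal level. The spread between replicates was alike in both groups, with a median coefficient of variation of 10.1% in callus and 10.4% in bulb over the kept features.

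Features lost from detection were mostly weak in bulb, whereas calls of a lower level in callus were most frequent among features abundant in bulb. Of the bulb features with a mean of 1 to 3 CPM in bulb, 68.1% were kept and 2.06% lost. From 30 to 100 CPM 99.1% were kept and 0.0572% lost, and above 1000 CPM all 46 were kept. The limit for loss is fixed at 0.1 CPM, so features abundant in bulb must fall further to count as lost. This decline with level thus follows in part from the rule. Falls of at least 16-fold were found for 3.84% of features from 1 to 3 CPM and 1.85% from 30 to 100. Above 1000 CPM they were found for 10.9%. The share of the features in a bin that were called lower in callus rose with bulb level. It was 35.7% from 1 to 3 CPM, 52.8% from 10 to 30, 77.3% from 100 to 300 and 87.0% above 1000 CPM. With library totals these shares were 25.6%, 38.0%, 65.5% and 82.6%. Sorting by the level in bulb favours features that are high there, and sorting by the level in callus gave 28.1% lower and 55.6% higher from 300 to 1000 CPM (22.7% and 65.6% with library totals). By the geometric mean of both tissues, which favours neither, the lower share still climbed, at 26.1% from 1 to 3 CPM, 48.9% from 10 to 30, 61.2% from 100 to 300 and 65.7% from 300 to 1000 CPM. The 24 features above 1000 CPM stood at 54.2%. With library totals these shares on the geometric mean were 18.5%, 35.2%, 47.9%, 57.8% and 50.0%, so the climb did not depend on the scaling. The share called higher was 31.4% from 1 to 3 CPM and 15.9% from 300 to 1000 CPM on the geometric mean. In these 2 bins the median log2 fold change was 0.10 and -0.81 with TMM, and 0.45 and -0.45 with library totals. A share of calls also depends on the power of the test, which differs between levels.

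**Figure D2:**
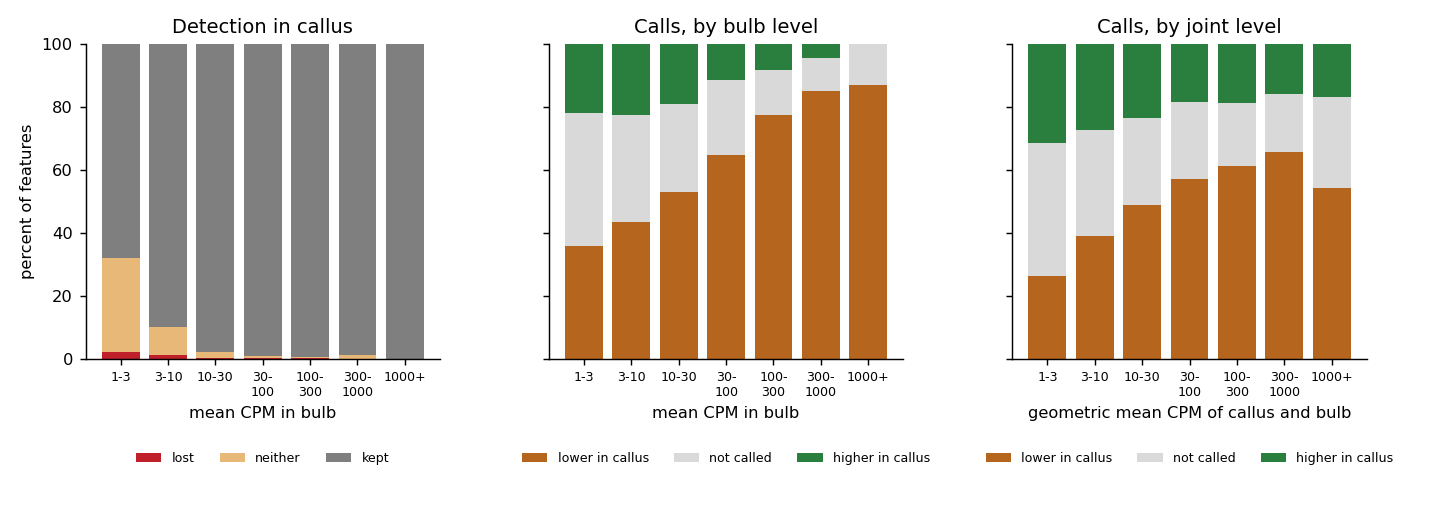
Percent of features (vertical) in bins of level in CPM (horizontal). The left panel gives detection of bulb features in callus by bulb level, the middle panel the calls of bulb features by bulb level, and the right panel the calls of all tested features by the geometric mean of callus and bulb. Lost and intermediate features crowd into the lowest bins, while the brown share of features called lower in callus grows with level up to 65.7% at 300 to 1000 CPM on the right.

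The most abundant bulb features show both behaviours. Of the 100 highest in bulb, a choice that favours lower calls, all were kept, 88 were lower, 2 higher and 10 not called in callus (86 lower and 7 higher with library totals). Their median rank in callus was 229. Of the 100 highest in callus, a choice that favours higher calls, 63 were higher, 18 lower and 19 not called (75 higher and 14 lower with library totals), beside 34.6% higher and 26.2% lower among all tested features. The single most abundant feature was the same in both tissues, with 5335, 6755 and 4649 CPM in callus A, B and C, against 4446, 7603 and 6229 CPM in bulb 1, 2 and 3. The groups overlapped and the difference was not called (log2 fold change -0.48, SE 0.21, adjusted p = 0.06). The second most abundant was also the same in both, with 4573, 4591 and 3843 CPM in callus and 2444, 3874 and 3467 CPM in bulb (log2 fold change 0.07, SE 0.19, adjusted p = 0.77; with library totals 0.43, adjusted p = 0.0323). Both belong to 1 cluster of the assembly, so the quantifier could have split reads between them.

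The features next in rank in bulb did not hold. The third had 568.2, 632.2 and 571.3 CPM in callus, against 3122, 2702 and 2978 CPM in bulb, a log2 fold change of -2.65 (SE 0.164, adjusted p = 1.29e-09). The fifth had 475.7, 610.3 and 523.2 CPM in callus, against 2502, 2398 and 2683 CPM in bulb (-2.58, SE 0.163, adjusted p = 1.77e-09). In each case the callus libraries lay far below every bulb library. The steepest fall among the 12 highest was that of the feature ranked 11 in bulb, with 24.5, 44.1 and 48.6 CPM in callus and 2099, 2045 and 2338 CPM in bulb. Its log2 fold change was -6.12 (SE 0.266, adjusted p = 2.29e-11), and its rank in callus was 5991. The sixth, in contrast, had 1833, 1961 and 2538 CPM in callus, within the 1659, 2983 and 2346 CPM of bulb (-0.47, SE 0.221, adjusted p = 0.0767).

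Abundant features that changed at least 16-fold were taken as a group after the values were seen, and are described without a test. In the falling direction there were 68 features with a mean of 100 CPM or more in bulb (57 with library totals). Of these 54 were kept and 2 lost, with median levels of 5.38 CPM in callus and 227 CPM in bulb. Together they took 0.0741%, 0.0911% and 0.0850% of the counts in callus A, B and C, against 2.63%, 2.59% and 2.55% in bulb 1, 2 and 3. All 8 other callus libraries were low as well, between 0.0933% and 0.170%. Root, leaves and basal plate, which did not enter the choice, lay between 0.851% and 1.86%. In all libraries of the basal plate 60 of the 68 reached 10 CPM, as did 60 in root and 46 in leaves, against 18 in light-grown 2 mg/L callus. This low level was therefore common to the cultured samples measured, and the bulb was not the only organ to express these features. The other callus libraries share the column kit and the organs share the CTAB buffer, so isolation method moves with this split too, and its part was not tested.

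In the rising direction there were 157 features with a mean of 100 CPM or more in callus, 89 of them bulb features and 18 under 0.1 CPM in every bulb library. They took 5.67%, 4.84% and 5.25% of the counts in callus A, B and C, against 0.0640%, 0.0777% and 0.0787% in bulb 1, 2 and 3. Light-grown callus at 4 mg/L was nearest, with 5.69% to 6.27%, and dark-grown callus lay lower, with 1.85% and 2.57% at 2 mg/L and 3.01% to 3.45% at 4 mg/L. In root they took 1.52% and 0.618%, in leaves 0.206% to 0.489% and in the basal plate 0.236% and 0.137%. The choice fixes the difference between light-grown 2 mg/L callus and bulb. Among the libraries that did not enter it, the 8 other callus libraries lay above the 7 of root, leaves and basal plate, and light-grown callus at 4 mg/L lay above dark-grown callus. The margin between callus and organs was narrow at its closest, with 1.85% in dark-grown callus and 1.52% in root. Isolation method moves with the split of callus from organs here as well, and its part was not tested.

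**Figure D3:**
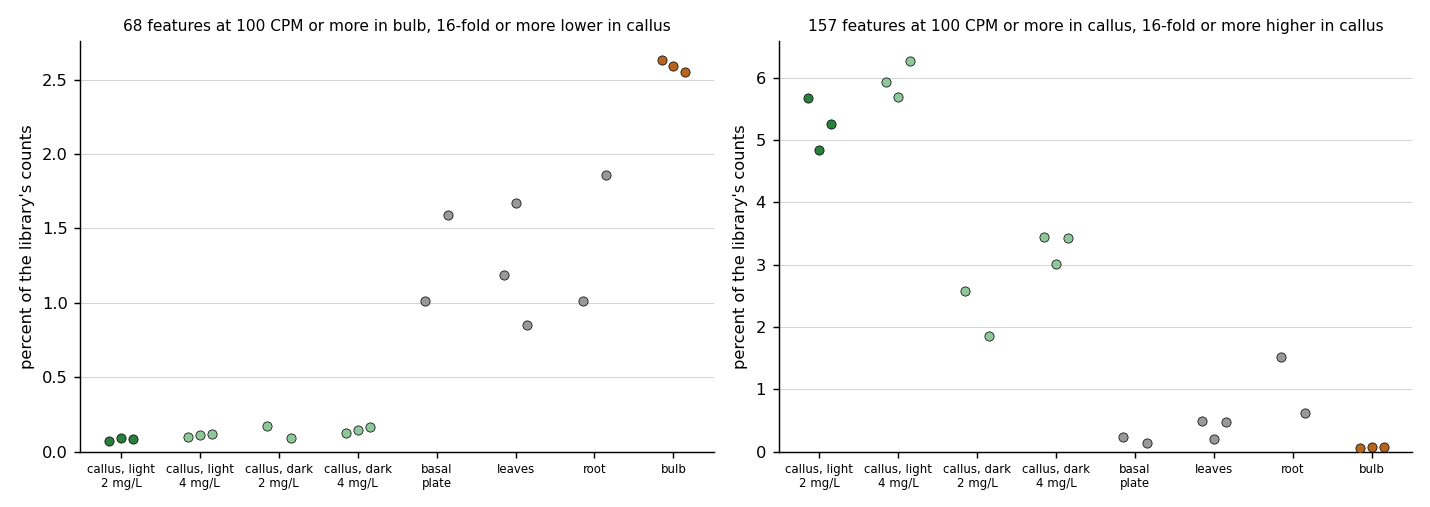
Percent of each library's counts (vertical) taken by 68 features abundant in bulb and at least 16-fold lower in callus (left) and by 157 features abundant in callus and at least 16-fold higher there (right), for each of the 21 libraries by group. Each point is 1 library; on the left all 11 callus libraries lie at or under 0.170% and the bulb libraries at 2.55% to 2.63%.

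The 219 lost features were mostly weak in bulb, and they were detected in other organs less often than bulb features in general. Their mean level in bulb ran from 1.05 to 232.5 CPM with a median of 2.63 CPM, and in callus the highest mean was 0.0821 CPM. In callus 69 of them had 0 counts in every library. Only 21 reached a mean of 10 CPM in bulb, 5 reached 30 CPM and 2 reached 100 CPM. The limit of 0.1 CPM set their number: 384 bulb features lay under 0.2 CPM in every callus library. All 219 were called lower, which the choice itself fixes.

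Other tissues showed where these features were active. In all libraries of at least 1 of root, leaves and basal plate 126 of the 219 were detected at 1 CPM, and 9 were under 0.1 CPM in every library of these 3 organs. By organ, 93 were detected in both basal plate libraries, 75 in both root libraries and 57 in the 3 leaf libraries. Of bulb features in general, most of them higher in bulb, 93.6%, 92.1% and 88.8% were detected there in this order. Both basal plate libraries differed in the sum over the lost features, with 496.5 CPM in replicate 1 and 1837 CPM in replicate 2. In callus of the other conditions the lost features were rarely on. At 1 CPM 5 were detected in the 3 libraries of light-grown callus at 4 mg/L, 6 in the pair from darkness at 2 mg/L and 5 in the 3 from darkness at 4 mg/L, while 96 were under 0.1 CPM in all 8. In sum they stood at 4.68, 3.94 and 4.28 CPM in light-grown 2 mg/L callus A, B and C, between 32.2 and 108 CPM in the other callus libraries and between 1388 and 1461 CPM in bulb. Part of the gap to the other callus libraries is built in, since only the light-grown 2 mg/L libraries were used to call a feature lost. Among the lost were 4 features with at least 1 CPM in all 8 other callus libraries.

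Lost features also differed from kept ones in assembled form. Isoform number and length are those of the assembly, and where levels are matched below, only the level in bulb is matched. Coverage in the other libraries was not matched, and its part was not tested. A single isoform was assembled for 47.9% of the lost, 37.9% of the intermediate and 19.6% of the kept features. Their relative effective length, counts per TPM scaled to a median of 1 in the kept features, had a median of 0.570 for lost and 0.524 for intermediate features. Kept features of low level were also short, and below 10 CPM in bulb the gap in length at the same level was narrower. From 1 to 3 CPM the medians were 0.517 for 123 lost and 0.583 for 4078 kept features, and from 3 to 10 CPM 0.620 for 75 lost and 0.747 for 6405 kept features. From 10 to 30 CPM they stood further apart, at 0.733 for 16 lost and 1.1 for 6088 kept features. The single-isoform share stayed apart, at 49.6% of lost and 32.0% of kept features from 1 to 3 CPM and 45.3% and 26.4% from 3 to 10 CPM. It was 56.2% and 16.2% from 10 to 30 CPM. A partner from the same assembly cluster, detected in all callus libraries, existed for 24 of the 219 lost features (11%) and for 18.9% of the kept ones. At the same bulb level these shares were 8.13% and 17.2% from 1 to 3 CPM and 16% and 19.8% from 3 to 10 CPM. A partner detected in all bulb libraries existed for 13.2% of the lost and 17.8% of the kept features.

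The mirror image held more features. At least 1 CPM in each callus library and under 0.1 CPM in each bulb library was found for 789, termed gained, out of 31119 features detected in all callus libraries. They took 1.18%, 1.04% and 1.08% of the counts in callus A, B and C, against 0.000913%, 0.000838% and 0.00172% in bulb 1, 2 and 3. In callus 128 of them reached a mean of 10 CPM and 18 reached 100 CPM, and 347 had 0 counts in every bulb library. Many gained features, though not all, were also detected in callus of the other conditions. At 1 CPM 510 (64.6%) were detected in light-grown callus at 4 mg/L, 393 (49.8%) in dark-grown callus at 2 mg/L and 390 (49.4%) at 4 mg/L in darkness, and 321 in all 8 of these libraries. Only 23 were under 0.1 CPM in all 8. In root 87 were detected, in leaves 51 and in the basal plate 23. Summed over the 789, root replicate 1 had 4084 CPM and root replicate 3 had 1285 CPM, the highest values outside callus.

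**Figure D4:**
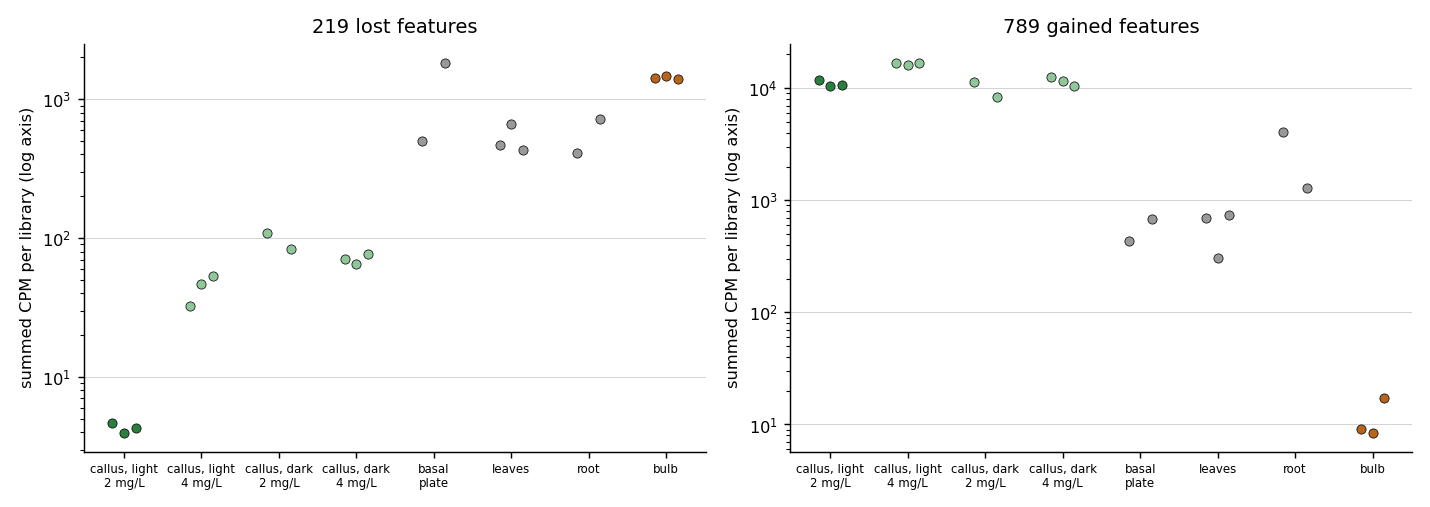
Summed level in CPM (vertical, log axis) of the 219 lost features (left) and the 789 gained features (right) in each of the 21 libraries by group; each point is 1 library. Lost features sum to 3.94 to 4.68 CPM in light-grown 2 mg/L callus, to 32.2 to 108 CPM in other callus, and remain above 400 CPM in all organs.

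A rule set for this comparison named 2 features in each direction, by fold and by difference in CPM. The largest rise by fold was that of Crpow_TRINITY_DN7670_c0_g1, with 1200, 934 and 1280 CPM in callus A, B and C, against 0 counts in each bulb library. It was at least 35300-fold higher in callus, set against a floor of 3 counts over the 3 bulb libraries (adjusted p = 1.07e-12). It had 15.4 to 21.8 CPM in light-grown callus at 4 mg/L, 13.5 and 31.7 CPM in darkness at 2 mg/L and 14.2 to 20.6 CPM in darkness at 4 mg/L. It was listed at 0 counts in leaves and had 6.85 and 4.91 CPM in root. The largest rise by CPM was that of Crpow_TRINITY_DN7684_c0_g1, the third most abundant feature of callus. It had 5110, 2860 and 3720 CPM in callus and 213, 207 and 241 CPM in bulb, a log2 fold change of 3.82 (SE 0.226, adjusted p = 8.07e-10). Light-grown callus at 4 mg/L had 966 to 1450 CPM, dark-grown callus 30.4 to 310 CPM and root 1930 and 542 CPM of it.

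The largest fall by fold was that of Crpow_TRINITY_DN14711_c0_g1, with 0 counts in each callus library and 22.0, 38.1 and 30.5 CPM in bulb 1, 2 and 3. It was at least 1750-fold lower in callus, by the same floor over the 3 callus libraries (adjusted p = 2.01e-11). At most 0.121 CPM were found in the other callus libraries and 0.104 CPM in leaves, while root had 5.50 and 15.8 CPM and the basal plate 3.54 and 81.3 CPM. The largest fall by CPM was that of Crpow_TRINITY_DN17393_c0_g1, the fourth most abundant bulb feature. It had 378, 464 and 400 CPM in callus and 2870, 2770 and 2910 CPM in bulb, a log2 fold change of -3.13 (SE 0.166, adjusted p = 2.10e-10). The feature remained abundant in all callus, with 460 to 822 CPM in the other callus libraries, and reached 2680 to 3830 CPM in leaves. For all 4 features the libraries of both groups did not overlap, which the rule required.

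**Figure D5:**
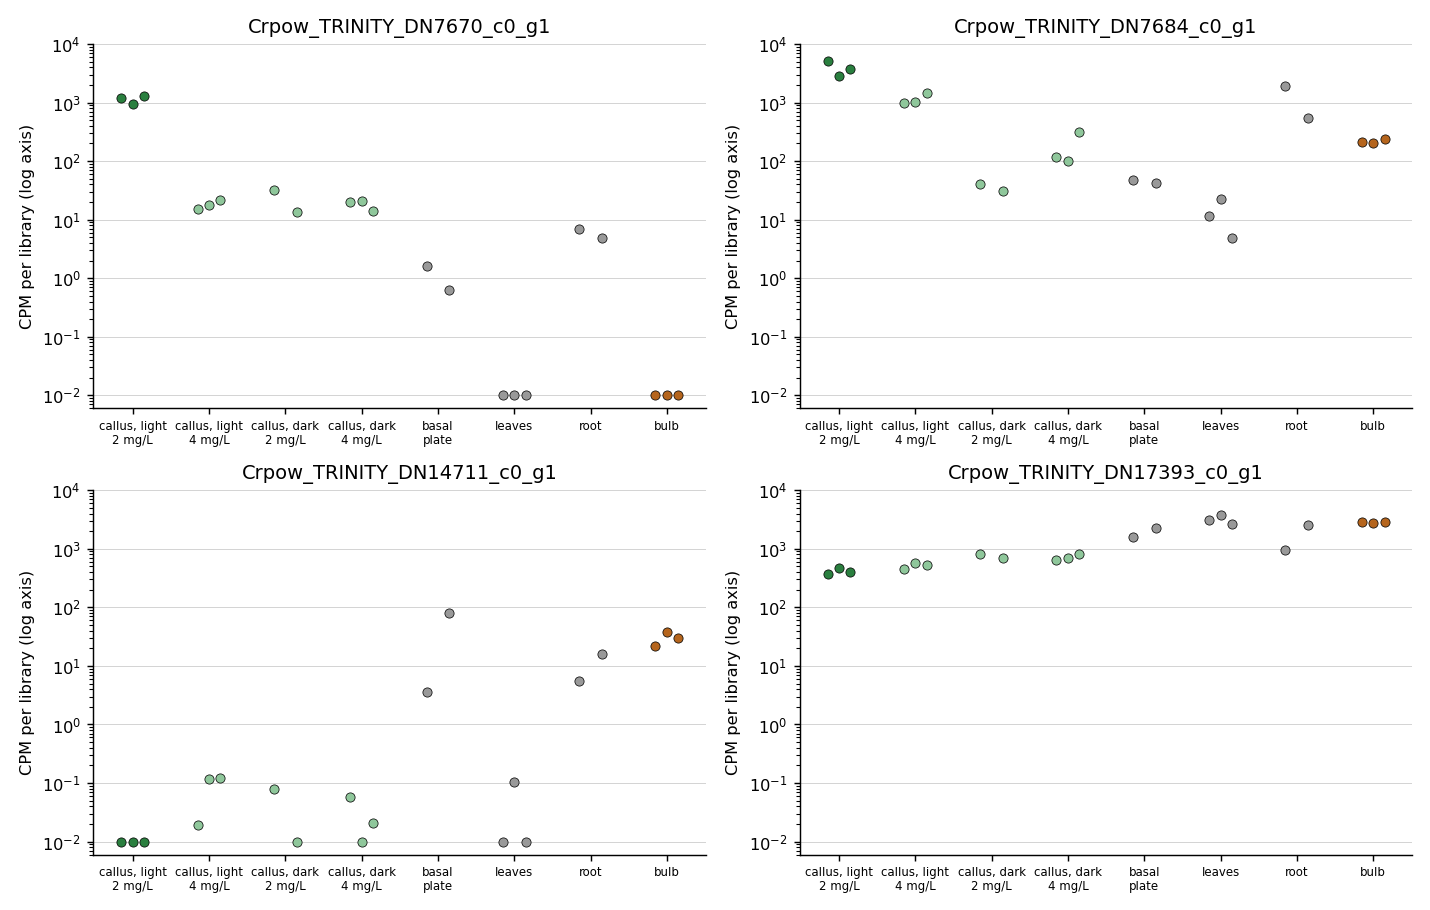
Level in CPM (vertical, log axis, with 0 drawn at 0.01) of the 4 named features in each of the 21 libraries by group; each point is 1 library. DN7670 is near 1000 CPM in light-grown 2 mg/L callus alone, DN14711 is at 0 there, and DN17393 stays above 300 CPM in all groups.

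Kept features were also compared by isoform. Among kept features with at least 2 isoforms and 10 counts in each of the 6 libraries, 13611 had the same leading isoform throughout the libraries of each group. For 12111 of these (89.0%) callus and bulb shared that isoform, and for 1500 (11%) the leading isoform differed. Of the 1500, 713 were lower and 401 higher as genes with TMM, but 549 were lower and 564 higher with library totals. Among all kept features, 46.1% were lower and 20.5% higher with TMM, and 33.2% and 32.8% with library totals. The lean to lower calls with TMM was thus shared by kept features in general. Not called with TMM were 386 (25.7%) of the 1500, beside 31.1% of the features that shared their leading isoform and 39.2% of all tested features. In 8 of the 1500 the leading isoform took at least 80% of the counts in every library of its group. Estimated counts of similar isoforms depend on how the quantifier divides shared reads.

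Against the same 3 bulb libraries, the other callus groups kept similar numbers of bulb features. Of the 26704, 23898 (89.5%) were kept in light-grown callus at 2 mg/L, 23892 (89.5%) in light at 4 mg/L, 23793 (89.1%) in darkness at 2 mg/L with 2 libraries, and 23701 (88.8%) in darkness at 4 mg/L. Lost were 219, 283, 441 and 373 in this order. These counts share the bulb libraries and vary with depth and number of libraries, and their differences were not tested. Of the organs, basal plate kept 25003 (93.6%) and lost 60, root kept 24595 (92.1%) and lost 114, and leaves kept 23708 (88.8%) and lost 304. The correlation with bulb libraries was 0.893 to 0.911 for light-grown callus at 4 mg/L, 0.885 to 0.908 in darkness at 2 mg/L and 0.899 to 0.914 in darkness at 4 mg/L, beside 0.911 to 0.930 for light-grown callus at 2 mg/L. For the organs it was 0.885 to 0.964 in basal plate, 0.919 to 0.938 in leaves and 0.949 to 0.967 in root.

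Light-grown 2 mg/L callus was tested directly against each other callus group, a difference in which bulb cancels out. The edgeR fit of 14 libraries called 24682 features against light at 4 mg/L, 29083 against darkness at 2 mg/L and 29659 against darkness at 4 mg/L, of 123345 tested. Without the dark-grown 2 mg/L library C the count against darkness at 2 mg/L was 18167. Of the 26704 bulb features, 5960 were higher and 3887 lower in light-grown 2 mg/L callus than in light at 4 mg/L, beside 9.01% and 11% of all tested features. With library totals the split was 5551 higher and 5502 lower. Against darkness at 2 mg/L 8456 were higher and 3769 lower (13.5% and 10% of all tested features), but with library totals 5965 were higher and 8294 lower. Against darkness at 4 mg/L 6679 were higher and 4741 lower (12.9% and 11.2% of all tested features), but with library totals 5887 were higher and 7377 lower, and without callus library C of light at 2 mg/L the higher share was 48.9%, against 58.5% with it. The direction in which bulb features set this callus apart from dark-grown callus thus rested on the scaling.

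Few kept features were detected in this callus group and under the limit of absence in all others. Of the kept features 11 were under 0.1 CPM in each of the 8 other callus libraries, and all 11 were higher in light-grown 2 mg/L callus in the tests against each of the 3 groups, as the choice requires. Their summed level was 105, 172.7 and 139.8 CPM in callus A, B and C, 0.127 to 0.442 CPM in the other callus libraries and 514.1, 536.1 and 566 CPM in bulb 1, 2 and 3. The level in this callus therefore stayed below that of bulb in sum. In leaves 6 of the 11 were detected, in the basal plate 5 and in root 3.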

How the data were processed

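RNA-seq libraries were grouped by tissue and treatment label. Per the submitters' processing notes, fastp 0.23.4, kallisto 0.46.1 and Salmon 1.4.0 were used, with no role given for each, and feature names follow the Trinity scheme. The authors deposited estimated counts and TPM per isoform. The estimated counts from the quantifier not named salmon were summed per gene after removal of the isoform suffix and rounded to whole numbers; the deposited gene tables named as counts are proportional to gene TPM within each library and were not used. The members and lists were chosen with earlier results of these data known.

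The 6 libraries were fitted with edgeR 4.0.16 in R 4.3.3 (quasi-likelihood F test, TMM factors, filterByExpr, Benjamini-Hochberg FDR under 0.05). TMM factors were 1.137, 1.218 and 1.045 in callus A, B and C and 0.8667, 0.8571 and 0.93 in bulb 1, 2 and 3. Standard errors are the log2 fold change divided by the square root of F. Detection classes used CPM by library total. Features were eligible for naming if called, if groups did not overlap and if each library of the group with the higher level reached 10 CPM, and those with the largest fold and the largest difference in mean CPM in each direction were named. Differences between callus groups were tested in a fit of 14 libraries. Permutation tests were exact (SciPy 1.17.1). Counting error alone is covered by floors of 3 counts. On data simulated for this comparison with 200 of 66278 features changed, all features with 4-fold and 74% of those with 2-fold changes were recovered, and 3.33% of the calls were false. The changed features were drawn from those with a mean of 1 CPM or more, in random direction. In the real data 60.8% of features were called, so these rates need not hold there or for weaker features.

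Alternatives were RLE factors, library totals, no filter, a filter of 1 CPM, the test of DESeq2 1.42.0, counts from the salmon tables, unsummed isoforms, the gene TPM the authors deposited, as log2(TPM + 1) or log2(TPM + 0.1) in limma 3.58.1, fits of 14 and 21 libraries, other detection limits, a leading isoform with most of the counts, thinning to 26403706 whole counts, and leaving out each library. For the differences between callus groups, the alternatives, like the level bins on the geometric mean, were chosen after seeing the data. Library totals for the calls of the most abundant callus features and of features with a different leading isoform were added then too.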

Additional observations from a re-analysis of the deposited data

Results flagged for a closer look

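The change from bulb differed between light-grown 2 mg/L callus and callus of the other conditions, by edgeR's test of that difference in 1 fit of 14 libraries. It called 24682 features against light at 4 mg/L, 29659 against darkness at 4 mg/L and 29083 against darkness at 2 mg/L. These 3 tests share the light-grown 2 mg/L libraries. Isolation method was the same in all callus, and the groups differ in light, concentration or both.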

How the results depend on the processing

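The number of called features was 40291, 24651 with a filter of at least 1 CPM in 3 libraries, 62331 in the fit of 14 libraries and 57088 in the fit of 21; more features are tested in the larger fits and fewer under the stricter filter. DESeq2 called 46254, with NA left out, and the count ran from 36678 to 46087 with 1 library left out. The number of lost features was 219, 463 with detection at 0.5 CPM, 112 at 2 CPM, 69 with absence at 0 counts, 384 with absence under 0.2 CPM and 378 on gene TPM. The number of gained features was 789 and, in the same order, 1833, 397, 347, 1317 and 1529. With 1 library left out, lost features ran from 232 to 267, gained from 856 to 1139 and kept from 24009 to 24550. With thinned or salmon counts and with TMM-scaled CPM, the kept, lost and gained counts stayed within 1.5 times. The difference in features at 1 CPM or more ran from 5332 to 7852 and that in the share of the 100 most abundant from -0.917 to -0.662 points with 1 library left out, and shared leading isoforms from 12351 to 12595.

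Between callus groups, the share of called bulb features that was higher in light at 2 mg/L was 69.2% against darkness at 2 mg/L and 58.5% against darkness at 4 mg/L, but 41.8% and 44.4% with library totals; the share against light at 4 mg/L was 60.5% and 50.2%. With 1 callus library left out, the share against darkness at 2 mg/L was 58.4% to 73.8% (18167 to 29381 called features), against darkness at 4 mg/L 48.9% to 64.8% (22834 to 30867) and against light at 4 mg/L 55.8% to 74.9% (17429 to 25254). Where 1 dark-grown 2 mg/L library remained, its variance was taken to be that of the other groups. The 4 named features kept direction and call under each alternative run. No paired analysis was possible because bulb libraries carry numbers and callus libraries letters. The cause of these shifts was not tested. Depth limits the lost features, since 0.1 CPM is 2.64 counts in the shallowest library.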
